A study of Mus musculus with 6 samples.

Results

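The genes described here encode the enzymes that make cholesterol and fatty acids, together with the factors that control them. They are 32 genes chosen by symbol, of 23407 listed, and all 32 had a mean above the filter for testing, which 14707 genes passed. They were measured by bulk RNA sequencing in dermal fibroblasts cultured from the dorsal skin of mice at 12 weeks of age, in 3 libraries labelled TSP2KO, for a knockout of thrombospondin-2, and 3 labelled wild type (WT). RNA was taken at passage 1, after an enrichment culture of 3 to 5 days in serum and high glucose, which both groups shared. The labels give neither the deletion construct nor the strain. They also leave unsaid whether replicate libraries stem from different mice, so each p-value rests on a spread that may be technical.

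Cells build cholesterol from acetyl-CoA through the mevalonate pathway, which ends in farnesyl diphosphate, and then through squalene and lanosterol. When membrane cholesterol is low, the escort protein SCAP carries the transcription factor SREBP2 to the Golgi, where it is cut and freed to switch on these enzymes and the uptake of cholesterol. INSIG proteins hold SCAP in the endoplasmic reticulum when sterols are plentiful. SREBP1, encoded by Srebf1, favours the fatty acid branch, where acetyl-CoA is made into palmitate and then lengthened and desaturated. In skin these lipids supply membranes, sebum and the barrier of the epidermis, and cultured cells can also take cholesterol from serum lipoproteins.

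Values are the authors' normalised counts, that is, reads per gene divided by a factor per library, and estimated depth was 14776502 to 34599855 reads per library. The smallest value of any of the 32 genes in any library was worth 100.0 reads. Thbs2, the targeted gene on chromosome 17, had 5177, 6635 and 4891 normalised counts in TSP2KO 1, TSP2KO 2 and TSP2KO 3, against 122061, 116720 and 8841 in WT 1, WT 2 and the library labelled WT 3. The library labelled WT 3 goes against its label, since its value was 1.59-fold that of the average TSP2KO library and 13.5-fold short of the other WT libraries, so results are given with and without it. For Thbs2 the log2 fold change was -3.18 (SE 0.95, limma adjusted p = 0.318) with all libraries and -4.43 (SE 0.22, adjusted p = 0.00257) without that library. The first principal component of all genes tested (45.4% of variance) placed the library labelled WT 3 at -64.1. TSP2KO 1 to 3 lay at -51.7, -20.5 and 4.05 on it, and WT 1 and WT 2 at 65.0 and 67.1. On the second (33.8%), the library labelled WT 3 lay at -47.1, with WT 1 and WT 2 at -37.0 and -11.1. TSP2KO 1 to 3 lay at 4.18, 0.81 and 90.3 there. The 9 fibroblast markers summed to 165125 to 263092 normalised counts in TSP2KO and 203923 to 389817 in WT, with the collagens Col1a1, Col1a2 and Col3a1 the main part. Their fold changes were negative for 7 of 9, with a median of -0.53 on the log2 scale, and none passed the threshold. The proteoglycan gene Lum had 1513, 1385 and 86.4 in TSP2KO, against 6822, 7501 and 3674 in WT, and the part of these differences in the lipid genes was not tested. In bulk RNA, fewer cells of a type and less RNA per cell cannot be told apart.

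Promoter sequences from RefSeq (build GRCm38.p6, the assembly of mm10) are shown for genes on which the account below turns, namely an abundant early enzyme, the enzyme with the largest positive difference, an enzyme whose groups did not overlap, and fatty acid synthase. Each line gives the 200 bases before the start site, 5′ to 3′ on the gene's strand. Capitals mark CCAAT, the box bound by NF-Y, in either orientation, and the sterol regulatory element that SREBP binds, searched as TCACNCCAC on both strands. The places are chr13:119690151-119690350, plus strand, for Hmgcs1, chr5:114444069-114444268, plus strand, for Mvk, chrX:72918321-72918520, plus strand, for Nsdhl, and chr11:120824548-120824747, minus strand, for Fasn.
Hmgcs1: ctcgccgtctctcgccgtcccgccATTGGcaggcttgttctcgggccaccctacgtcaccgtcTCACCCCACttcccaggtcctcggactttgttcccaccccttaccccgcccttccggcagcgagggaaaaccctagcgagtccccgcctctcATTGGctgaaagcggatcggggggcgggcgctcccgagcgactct
Mvk: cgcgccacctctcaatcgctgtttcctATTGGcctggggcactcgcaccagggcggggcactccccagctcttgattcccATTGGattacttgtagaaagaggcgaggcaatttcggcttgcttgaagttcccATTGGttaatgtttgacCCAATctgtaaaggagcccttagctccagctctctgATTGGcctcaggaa
Nsdhl: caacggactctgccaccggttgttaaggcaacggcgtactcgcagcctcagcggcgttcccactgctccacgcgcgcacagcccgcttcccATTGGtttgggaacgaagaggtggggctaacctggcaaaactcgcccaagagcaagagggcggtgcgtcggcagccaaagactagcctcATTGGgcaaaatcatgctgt
Fasn: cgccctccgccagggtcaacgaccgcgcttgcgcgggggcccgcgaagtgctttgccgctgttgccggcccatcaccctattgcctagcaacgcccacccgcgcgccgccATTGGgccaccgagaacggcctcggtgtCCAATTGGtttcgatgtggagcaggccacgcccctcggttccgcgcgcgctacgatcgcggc

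Of the 32 genes, 25 had a promoter entry, reaching from upstream of the start site to just past it, and Fdps, Fdft1, Sqle, Stard4, Scd1, Scd2 and Fads1 were not looked at. The sterol regulatory element in this strict spelling was present in 1 of the 25, Hmgcs1, where it read TCACCCCAC and began 137 bases before the start. It was present in 1.39% of the 10288 tested genes with an entry. CCAAT was present in 20 of the 25 (80%), against 43.3% of the tested genes with an entry. By role it was found for 5 of 6 genes of the mevalonate pathway, 9 of 9 of the squalene to cholesterol steps, 4 of 5 regulators and 2 of 5 fatty acid genes. The GC box GGGCGG was present in 21 of the 25 (84%), against 68.3% of tested genes. A match describes letters, not binding.

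No gene of the 32 passed the threshold as higher in TSP2KO and none as lower, where passing means a limma adjusted p under 0.05 over all genes tested. Over all genes 0% passed as higher and 0.0612% as lower. At an unadjusted limma p under 0.05 there were also 0 of 32 in each direction, against 3.66% of all genes higher and 6.09% lower. Without the library labelled WT 3, 0 of 32 passed in each direction, against 2.43% of all genes higher and 2.75% lower. Fold changes are differences of mean log2(value + 1), TSP2KO minus WT. They lay between -0.45 for Dhcr7 and 0.39 for Mvk, with a median of -0.04, against -0.01 over all genes tested, and 13 were positive and 19 negative. Without the library labelled WT 3 the median was -0.01, with 16 positive and 16 negative.

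The confidence intervals show how large a difference these libraries allow. Their width rests on the spread between libraries, which may be technical, so they need not bound a difference between genotypes. The 95% confidence interval of the fold change lay within 2-fold in either direction for 27 of the 32 genes (84.4%), against 50.2% of all genes tested. The 5 exceptions were Mvk, Tm7sf2, Insig1, Srebf1 and Scd1. Without the library labelled WT 3 it was so for 25 of 32 (78.1%), against 44.5% of all genes, and Scd2 and Elovl6 joined those exceptions. The genes tested reach down to a mean of 10, whereas the lowest mean among the 32 was 135, for Tm7sf2. No share matched for level was computed, so the contrast with all genes may reflect level. The intervals that follow are with all libraries unless stated. For Sqle, squalene epoxidase and a point of control of the pathway, the interval was -0.36 to 0.44 on the log2 scale. For Fasn, fatty acid synthase, it was -0.44 to 0.37, and for Srebf2, which encodes SREBP2, it was -0.38 to 0.50. Without the library labelled WT 3 the intervals were -0.30 to 0.53 for Sqle, -0.35 to 0.46 for Fasn and -0.47 to 0.48 for Srebf2.

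**Figure D1:**
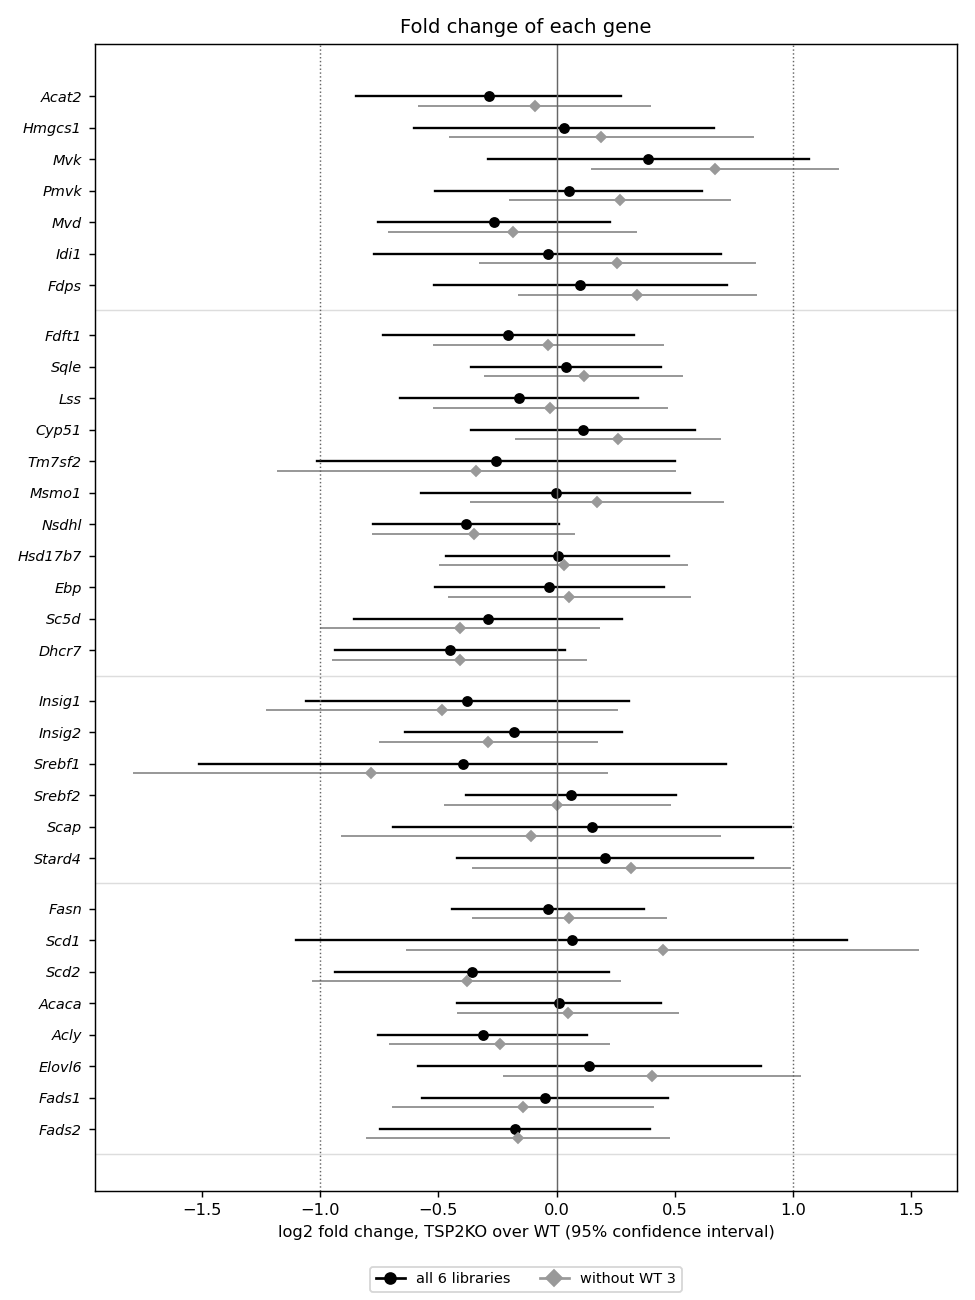
Log2 fold change of each gene, TSP2KO over WT, with its 95% confidence interval from limma, for all 6 libraries (black circles) and without the library labelled WT 3 (grey diamonds). Genes run down the page by role (mevalonate pathway, squalene to cholesterol, regulators and transport, fatty acid synthesis), dotted lines mark a 2-fold difference, and the black values lie between -0.45 and 0.39.

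Levels differed far more between genes than between groups. Values per kilobase of exon allow a rough comparison of genes, since exon length was taken over all annotated transcripts together. Scd2, a stearoyl-CoA desaturase, led with a mean of 4639 normalised counts per kilobase over the 6 libraries. Acly, ATP citrate lyase, which makes cytosolic acetyl-CoA, followed with 1612, Idi1 with 1479, Hmgcs1 with 1234 and Cyp51 with 1149. The lowest were Scap with 40.4, Tm7sf2, a sterol reductase, with 30.6 and Acaca, acetyl-CoA carboxylase, with 22.9. The place of Acaca is uncertain, since 52.6% of the 50-base windows of its longest transcript also occur in Gm5182. Scd2 ranged from 3317 to 6298 per kilobase over the libraries and stayed above every other member in each, while Idi1 at 953 to 2183 overlapped Acly at 1368 to 1964.

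**Figure D2:**
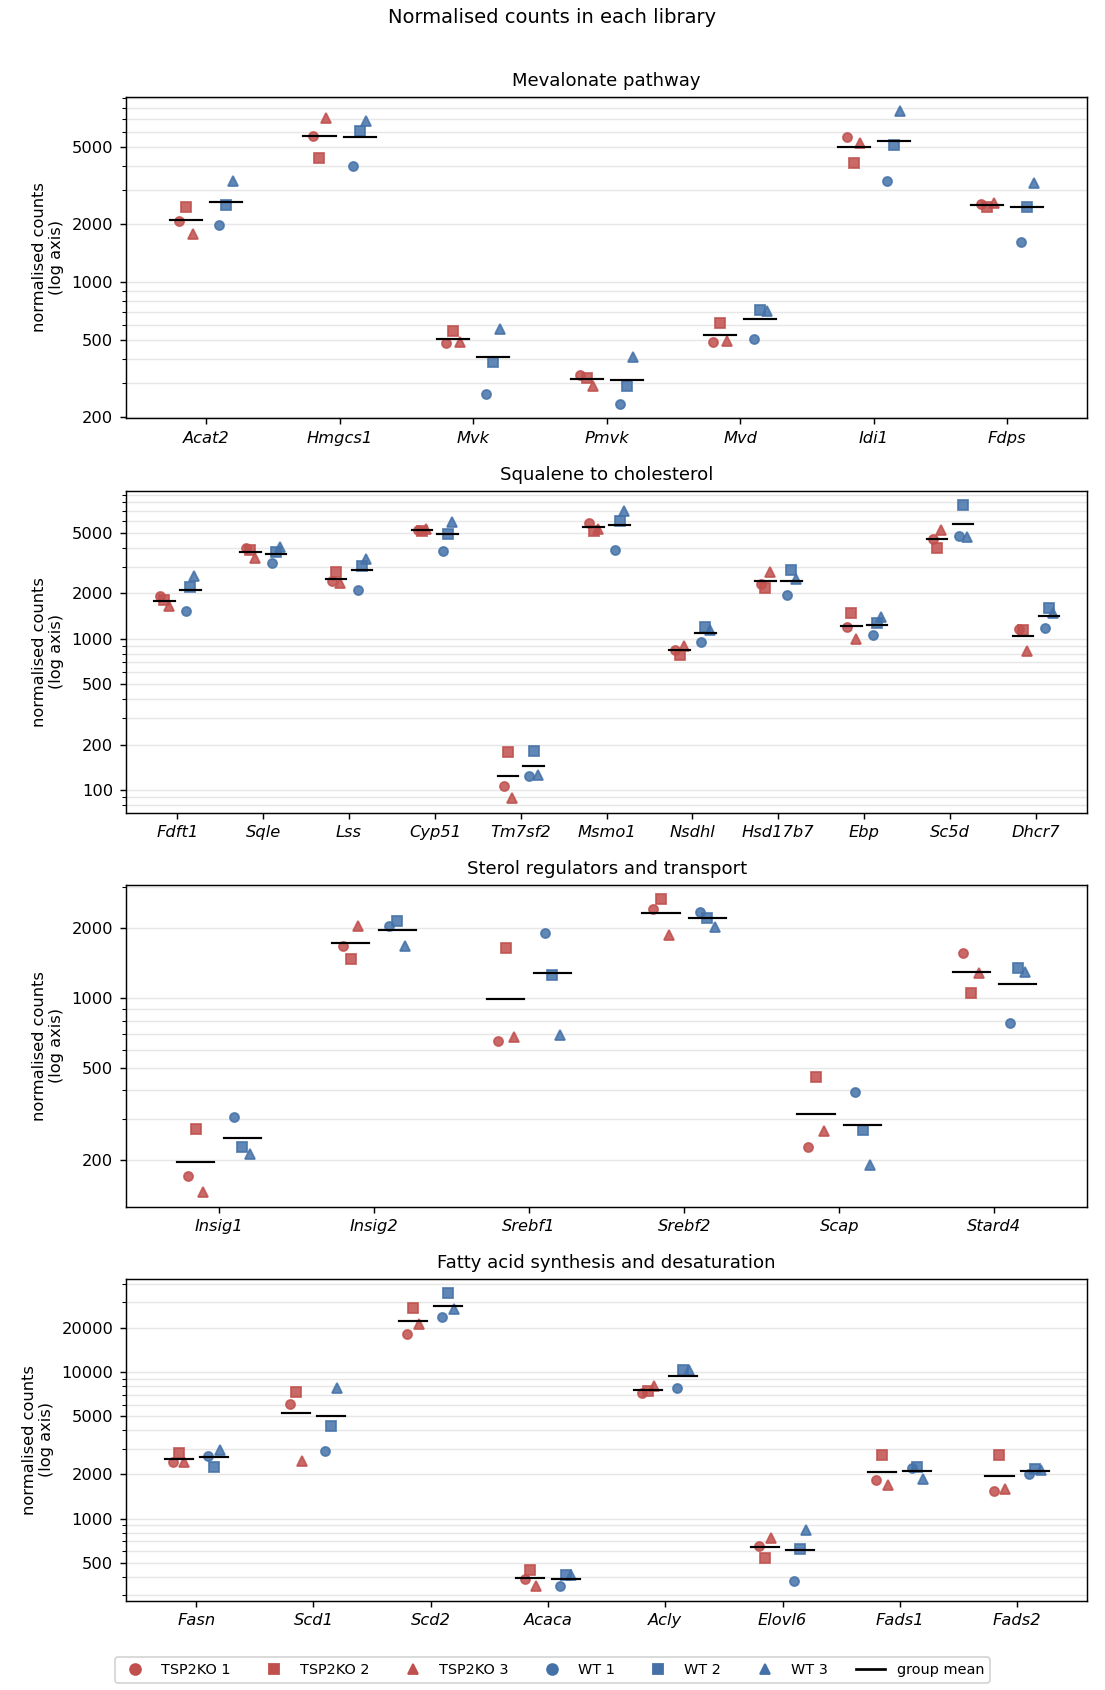
Normalised counts of each gene (log axis) in TSP2KO libraries (red, left) and WT libraries (blue, right), in 4 panels by role. Circles, squares and triangles are libraries 1, 2 and 3 of each group and bars are group means; the groups overlap for all genes but Nsdhl and Dhcr7.

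The mevalonate pathway begins with Acat2, the cytosolic thiolase, and Hmgcs1, HMG-CoA synthase. Hmgcs1 had 5702, 4396 and 7038 normalised counts in TSP2KO 1 to 3, against 4012, 6033 and 6835 in WT 1 to 3. The lowest value was in WT 1 and the highest in TSP2KO 3, and the groups overlapped throughout. The log2 fold change was 0.03 (SE 0.27, limma adjusted p = 0.98), with a 95% confidence interval of -0.60 to 0.67. Idi1, which isomerises isopentenyl diphosphate, had 5619, 4147 and 5214 in TSP2KO and 3341, 5141 and 7653 in WT, so that both extremes were WT libraries. Its log2 fold change was -0.04 (SE 0.31, adjusted p = 0.98).

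Mvk, mevalonate kinase, had the largest positive difference. It had 487, 558 and 488 normalised counts in TSP2KO, against 265 and 387 in WT 1 and WT 2 and 576 in the library labelled WT 3. The TSP2KO values lay above WT 1 and WT 2 and below the library labelled WT 3. The log2 fold change was 0.39 (SE 0.29, limma adjusted p = 0.733). Without that library it was 0.67 (adjusted p = 0.122), which at an unadjusted p = 0.0187 was the only one of the 32 genes under 0.05 in that fit, where 11.8% of all genes were higher and 12.7% lower at that level.

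Most other genes of this pathway were likewise lowest in WT 1 and highest in the library labelled WT 3 among the WT libraries, with Mvd the exception. Fdps, farnesyl diphosphate synthase, had 2532, 2438 and 2565 in TSP2KO, a 1.05-fold span, and 1609, 2439 and 3273 in WT, a 2.03-fold span. Pmvk, phosphomevalonate kinase, had 292 to 331 in TSP2KO and 235 to 411 in WT. Mvd, the decarboxylase, had 489 to 615 in TSP2KO and 508 to 718 in WT, and Acat2 had 1784 to 2455 and 1977 to 3338. All 7 genes were lower in WT 1 than in WT 2, and 6 of 7 were highest of the WT libraries in the one labelled WT 3. The SD of log2 values was larger in WT than in TSP2KO for all 7, against 61.6% of all genes tested.

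Acat2 lies on chromosome 17 at 12942890 to 12960747, 1.72 Mb from Thbs2. Its log2 fold change was -0.29 (SE 0.24, limma adjusted p = 0.758), with a 95% confidence interval of -0.85 to 0.27. Of the 50-base windows of its longest transcript, 45.9% also occur in a transcript of Acat3, which had 43.9 to 73.4 normalised counts in TSP2KO and 37.2 to 188 in WT. Windows of Idi1 were shared at 21.3%, mainly with Gm13502, which had 549 to 738 in TSP2KO and 318 to 901 in WT. How reads were divided among such copies is not given in the sources used here, so the levels of Acat2 and Idi1 are uncertain.

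Among the enzymes from squalene to cholesterol, Nsdhl and Dhcr7 were the 2 of the 32 genes whose groups did not overlap, both below WT in TSP2KO. Over all genes 8.27% lay below WT in this way and 5.9% above, and 0 of the 32 genes lay above. Nsdhl, a sterol dehydrogenase that acts in removing methyl groups from the ring, had 840, 788 and 892 normalised counts in TSP2KO, against 953, 1202 and 1143 in WT. The highest TSP2KO library, at 892, lay just under the lowest WT library, at 953. The means were 840 ± 52.2 in TSP2KO and 1099 ± 130 in WT (SD, n = 3 each). Its log2 fold change was -0.38 (SE 0.17, limma adjusted p = 0.521), with a 95% confidence interval of -0.78 to 0.01. Nsdhl lies on the X chromosome (72918557 to 72958514), as does Ebp, the sterol isomerase, which had 996 to 1477 in TSP2KO and 1067 to 1393 in WT.

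Dhcr7, the reductase that ends one route to cholesterol, had the largest negative difference. It had 1162, 1140 and 835 normalised counts in TSP2KO, against 1189, 1591 and 1491 in WT. TSP2KO 1 and WT 1 lay closest, and the means were 1046 ± 183 in TSP2KO and 1424 ± 209 in WT (SD, n = 3 each). For Dhcr7 the log2 fold change was -0.45 (SE 0.21, limma adjusted p = 0.547) with all libraries and -0.41 (adjusted p = 0.316) without the library labelled WT 3. The 95% confidence interval with all libraries was -0.94 to 0.04.

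The abundant members of these steps did not part the groups. Msmo1, methylsterol monooxygenase, had 5866, 5146 and 5358 in TSP2KO and 3897, 6016 and 6965 in WT, a log2 fold change of -0.00447 (SE 0.24, limma adjusted p = 0.997). Cyp51, lanosterol demethylase, had 5213, 5158 and 5315 in TSP2KO, a 1.03-fold span, and 3834, 4964 and 5948 in WT, a 1.55-fold span. Sc5d, a sterol desaturase, had 4560, 3960 and 5232 in TSP2KO and 4786, 7634 and 4719 in WT, where WT 2 stood alone at the top. In each of these genes the TSP2KO libraries lay closer together than the WT libraries.

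Fdft1, squalene synthase, had 1648 to 1932 normalised counts in TSP2KO and 1534 to 2611 in WT, and shares 774 bases of exon with Ctsb on the opposite strand. Of the 50-base windows of Fdft1, 10.9% also occur in Gm6781, so its level is uncertain. Gm6781 had 356 to 383 in TSP2KO and 299 to 536 in WT. Ctsb, the protease cathepsin B, had 18027 to 43809 in TSP2KO and 46452 to 60618 in WT. Fdft1 is also uncertain because the sources used here do not say whether counting used the strand, although the library kit was stranded. The same holds for Hmgcs1, Idi1, Lss, Cyp51, Srebf1, Scap and Elovl6, whose exons overlap those of genes on the other strand by 34 to 985 bases, and Tm7sf2 and Fdps share exon bases with Vps51 and Gm43738 on their own strand. Sqle had 3418 to 3961 in TSP2KO and 3176 to 4029 in WT. Lss, lanosterol synthase, had 2338 to 2751 and 2118 to 3349, and Hsd17b7, a sterol ketoreductase, had 2163 to 2768 and 1953 to 2835. Tm7sf2, the least abundant of these enzymes, had 89.0 to 180 in TSP2KO and 125 to 182 in WT, with TSP2KO 2 and WT 2 well above the other 4 libraries.

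Together the 18 sterol enzymes, from Acat2 to Dhcr7, separated the WT libraries from each other rather than the groups. All 18 were lower in WT 1 than in WT 2, against 54.6% of all genes tested. WT 1 was the lowest of the 6 libraries for 11 of 18 (61.1%, against 23.5% of all genes), and the library labelled WT 3 was the highest for 10 of 18 (55.6%, against 21.7%). Relative to the mean of the 6 libraries, their mean log2 value was -0.03, -0.01 and -0.10 in TSP2KO 1 to 3, against -0.31, 0.16 and 0.28 in WT 1, WT 2 and the library labelled WT 3. The mean over all genes tested was 0.007044, 0.03 and -0.12 in TSP2KO and 0.01, -0.02 and 0.08 in WT. The median SD of log2 values within a group was 0.15 in TSP2KO and 0.36 in WT for these enzymes, against 0.29 and 0.37 for all genes. These counts describe libraries and were not tested.

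**Figure D3:**
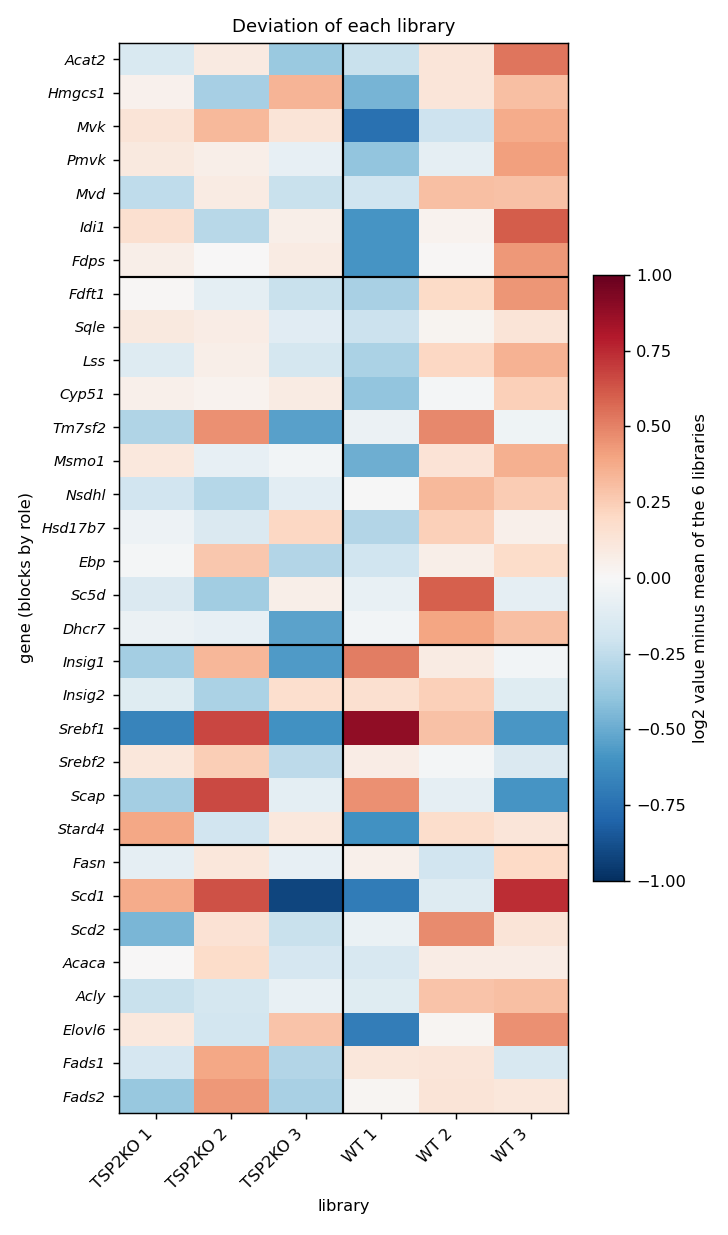
Log2 value of each gene in each library minus its mean over the 6 libraries (red above, blue below), with TSP2KO libraries left of WT libraries and black lines between roles. Most sterol enzymes are blue in WT 1 and red in the library labelled WT 3, while Srebf1 and Scap are red in TSP2KO 2 and WT 1.

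Markers of proliferation and of other cells also differed between libraries. Summed over 16 genes of G2 and M phase, values were 16240, 12708 and 9861 normalised counts in TSP2KO, against 4289 and 4136 in WT 1 and WT 2 and 19390 in the library labelled WT 3. Keratinocyte markers, 9 genes, summed to 8674, 8465 and 298 in TSP2KO, against 1146, 452 and 25938 in WT, with Krt1 under 1 in all 6. Macrophage markers, 14 genes, all had negative fold changes, of which 1 passed the threshold, and summed to 749 to 871 in TSP2KO and 3494 to 6158 in WT. Endothelial, melanocyte and Schwann cell markers summed to 498 to 1950, 196 to 591 and 1504 to 4773 in TSP2KO, against 413 to 4410, 666 to 1035 and 3609 to 8895 in WT. Of the 6 adipocyte markers, 4 were listed, with sums of 419 to 457 in TSP2KO and 155 to 1117 in WT. Adipoq, the adipocyte hormone adiponectin, reached 32.4 at most in TSP2KO 2. Of the 6 sebaceous gland markers, 5 were listed, with sums of 2249 to 2365 in TSP2KO and 3065 to 3459 in WT, mostly from Mgst1 and Soat1, which are not restricted to that gland, and Awat2 reached 5.88 at most. Their part in the levels of the lipid genes was not tested.

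Among the regulators, Srebf2 had 2428, 2662 and 1869 normalised counts in TSP2KO, against 2359, 2221 and 2030 in WT, a log2 fold change of 0.06 (SE 0.19, limma adjusted p = 0.954). All 3 WT values lay inside the range of the TSP2KO libraries. Insig2, an INSIG that holds SCAP in the endoplasmic reticulum, had 1683, 1467 and 2054 in TSP2KO and 2046, 2157 and 1679 in WT, a log2 fold change of -0.18 (SE 0.20, adjusted p = 0.82).

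Srebf1 varied most among the regulators and is singled out after its values were seen. It had 651, 1639 and 678 normalised counts in TSP2KO, against 1901, 1263 and 690 in WT 1, WT 2 and the library labelled WT 3. TSP2KO 2, WT 1 and WT 2 were thus high and the other 3 libraries low, across the labelled groups. The log2 fold change was -0.40 (SE 0.47, limma adjusted p = 0.837), and without the library labelled WT 3 it was -0.79 (adjusted p = 0.306). Its 95% confidence interval of -1.51 to 0.71 held a level 2-fold lower in TSP2KO but not one 2-fold higher.

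Scap and Insig1 were also highest in TSP2KO 2 and WT 1. Scap had 227, 456 and 268 in TSP2KO, against 395, 270 and 190 in WT, and Insig1, the INSIG that is itself switched on by SREBP, had 171, 273 and 146, against 308, 229 and 212. Stard4, a carrier that moves cholesterol between membranes, had 1561, 1047 and 1286 in TSP2KO and 783, 1351 and 1299 in WT. Its lowest value was in WT 1, as for 11 of the 18 sterol enzymes. None of the 6 regulators passed the threshold, and their fold changes lay between -0.40 and 0.20. Relative to the mean of the 6 libraries, their mean log2 value was -0.16, 0.23 and -0.21 in TSP2KO and 0.25, 0.11 and -0.22 in WT. Srebf1, Scap and Insig1 gave most of the height in WT 1, at 0.88, 0.46 and 0.51, whereas Stard4 stood at -0.61 and Srebf2 at 0.07 there, and no difference between the roles was tested.

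**Figure D4:**
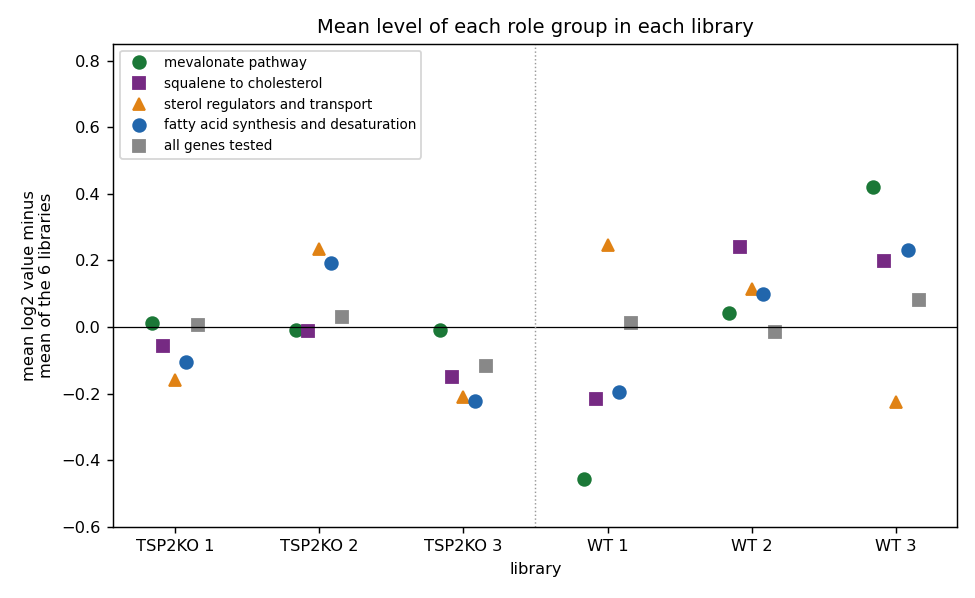
Mean log2 value of each role group in each library minus its mean over the 6 libraries, with TSP2KO libraries left of WT libraries and all genes tested in grey. The mevalonate pathway lies between -0.01 and 0.01 in the 3 TSP2KO libraries and at -0.46, 0.04 and 0.42 in WT 1 to 3.

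In the fatty acid branch, Scd2 had 18123, 27415 and 21244 normalised counts in TSP2KO, against 23718, 34415 and 27157 in WT. The group ranges overlapped, with TSP2KO 1 lowest and WT 2 highest. The log2 fold change was -0.36 (SE 0.25, limma adjusted p = 0.713). Acly had 7221, 7452 and 8001 in TSP2KO, against 7750, 10282 and 10366 in WT, so that only TSP2KO 3 reached above the lowest WT library. Its log2 fold change was -0.31 (SE 0.19, adjusted p = 0.679), with a 95% confidence interval of -0.75 to 0.13.

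Scd1, the other main desaturase of skin, had the widest span of the 32 genes, 3.15-fold, and is singled out after its values were seen. It had 6055, 7266 and 2478 in TSP2KO, against 2872, 4268 and 7798 in WT. TSP2KO 1, TSP2KO 2 and the library labelled WT 3 were high, the same 3 libraries in which keratinocyte markers were high, at 8674, 8465 and 25938. Endothelial markers were also highest there, at 1950, 1781 and 4410, against 498 in TSP2KO 3 and 952 and 413 in WT 1 and WT 2. Genes of G2 and M phase were highest there too, at 16240, 12708 and 19390. They summed to 9861 in TSP2KO 3 and 4289 and 4136 in WT 1 and WT 2. Adipocyte and melanocyte markers had mean log2 values above their 6-library mean in those 3 libraries alone. The excess was 0.65, 0.80 and 1.18 for adipocyte and 0.90, 0.32 and 1.95 for melanocyte markers. Adipocyte sums were also highest in those 3 libraries, by a small margin over TSP2KO 3. Adipocyte markers summed to 457, 456 and 419 in TSP2KO 1 to 3, against 193, 155 and 1117 in WT 1 to 3. Melanocyte sums did not follow this order. They were 591, 395 and 196 in TSP2KO, against 666, 781 and 1035 in WT. The part of such cells, or of proliferation, in Scd1 was not tested. With all libraries the log2 fold change was 0.06 (SE 0.50, limma adjusted p = 0.979), and its 95% confidence interval was -1.10 to 1.23. Scd3, a desaturase of the sebaceous gland in mice, had 23, 14 and 2.67 in TSP2KO 1 to 3, against 4.12, 4.32 and 13.5 in WT 1 to 3. Scd3 was thus highest in the same 3 libraries as Scd1, at far lower values. Some 50-base windows of Scd1 also occur in Scd3, and the part of such sharing was not tested. Sums of the sebaceous gland markers, which include Scd3, did not follow this order. They were 2249, 2365 and 2332 in TSP2KO, against 3159, 3459 and 3065 in WT.

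Fasn was among the steadiest members, with 2422, 2787 and 2440 in TSP2KO and 2663, 2258 and 2953 in WT, a 1.31-fold span over the 6 libraries. Acaca, which supplies its malonyl-CoA, had 389, 442 and 346 in TSP2KO and 348, 409 and 410 in WT. Of the windows of Acaca, 52.6% also occur in Gm5182, listed at 352 to 489 in TSP2KO and 378 to 478 in WT, so the level of Acaca is uncertain. Elovl6, which lengthens palmitate, had 534 to 742 in TSP2KO and 376 to 835 in WT, with WT 1 lowest and the library labelled WT 3 highest, as in the mevalonate pathway. Fads1 and Fads2, the desaturases of polyunsaturated fatty acids, lie beside each other on chromosome 19 and had their highest values in TSP2KO 2, at 2697 and 2694, against 1687 to 1832 and 1534 to 1589 in the other TSP2KO libraries and 1847 to 2248 and 2018 to 2178 in WT. None of the 8 fatty acid genes passed the threshold.

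Among 46 further genes of the same pathways, 44 were tested, and 0 passed the threshold in either direction, with or without the library labelled WT 3. Thrsp and Mlxipl, factors of fatty acid synthesis, had means too low to be tested. At an unadjusted limma p under 0.05 there were 0 higher and 1 lower with all libraries, against 3.66% of all genes higher and 6.09% lower. Without the library labelled WT 3 there were 2 higher and 5 lower of 44, against 11.8% and 12.7% of all genes. With all libraries, groups did not overlap for 2 of 44 above WT (Fntb and Me1) and 2 below (Nus1 and Acsl4). Over all genes 5.9% lay above in this way and 8.27% below.

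Among the genes of SREBP processing and sterol uptake, Rnf139, a ubiquitin ligase of the endoplasmic reticulum, had 184, 262 and 162 normalised counts in TSP2KO, against 379, 293 and 185 in WT (log2 fold change -0.46, SE 0.32, limma adjusted p = 0.713). Mbtps1, the protease that makes the first cut in SREBP, had 3856, 3831 and 4514 in TSP2KO, against 5661, 5613 and 3728 in WT (log2 fold change -0.28, SE 0.22, adjusted p = 0.745). In both genes WT 1 was highest, and the library labelled WT 3 lay within or below the TSP2KO range. Without that library the log2 fold change was -0.75 for Rnf139 (adjusted p = 0.15) and -0.48 for Mbtps1 (adjusted p = 0.148).

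In the isoprenoid branch, Fntb, the beta subunit of farnesyltransferase, had 237, 231 and 246 in TSP2KO, against 158, 178 and 208 in WT (log2 fold change 0.40, SE 0.19, limma adjusted p = 0.58). Nus1, a subunit of the enzyme that makes dolichol precursors, had 253 to 305 and 321 to 374 (log2 fold change -0.31, adjusted p = 0.666), and neither gene's groups overlapped. Ggps1, geranylgeranyl diphosphate synthase, had 1443 to 2064 in TSP2KO and 1688 to 3191 in WT (log2 fold change -0.46, adjusted p = 0.676). Without the library labelled WT 3 the value for Ggps1 was -0.71 (adjusted p = 0.099).

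Of the other fatty acid genes, Acsl4, an acyl-CoA synthetase that prefers arachidonate, had 2179, 1838 and 1870 in TSP2KO, against 2266, 2932 and 3111 in WT. Every TSP2KO value lay below every WT value, and the log2 fold change was -0.49 (SE 0.19, limma adjusted p = 0.447). Acsl1, another acyl-CoA synthetase, had 183 to 281 in TSP2KO and 272 to 361 in WT (log2 fold change -0.51, adjusted p = 0.537). Me1, malic enzyme, which supplies NADPH, had 547, 594 and 703 in TSP2KO, against 517, 497 and 354 in WT (log2 fold change 0.44, adjusted p = 0.58). Its TSP2KO values all lay above its WT values.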

How the data were processed

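RNA was measured in 6 libraries, 3 TSP2KO and 3 WT. The deposited values are a normalised signal per gene, named as normalised counts by the authors. The submitters' processing notes name mm10 as the build, and list STAR, DESeq2 and Partek with no role attached. Annotation and strand setting: not given in the sources used here. Subtracting 1 base from each stop made the coordinates of 96.4% of genes equal to GENCODE M21, and that form is printed. Low values fell on steps of constant size, taken as 1 read, but 68.3% to 73.6% of values were whole multiples within 0.02 of a read, so whole reads were not recovered and no count test was run. Depth is the total divided by the step. Genotype and replicate number linked each column to a sample, since the suffixes of the column names differ from those of the labels.

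Genes with a mean of at least 10 were tested by limma 3.58.1 in R 4.3.3 on log2(value + 1) with a mean-variance trend, two-sided, with Benjamini-Hochberg adjustment over 14707 genes. Fold changes on that scale understate those of low genes. The test was tested on simulated data. Exon lengths and shared 50-base windows came from GENCODE M21, and promoters from RefSeq outside chromosome 18. Members and gene lists were chosen with earlier results of these data known. All members were to be named, with values in every library for those under an unadjusted p of 0.05, those without group overlap and the 2 most abundant of each role. Of each further list up to 3 with the smallest p were named, besides Thbs2. Some further genes that this rule names are not reported here. Values in every library are also given for Mvk, Fdps, Cyp51, Srebf1, Scap, Insig1, Stard4, Fasn, Acaca and Scd1, chosen after their values were seen. The same holds for Scd3. Alternatives were other pseudocounts, filters, scalings, variance models, a replicate block and each library left out.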

Additional observations from a re-analysis of the deposited data

How the results depend on the processing

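None of the 32 genes passed the threshold in either direction under any of the 15 alternatives, and their median log2 fold change ran from -0.18 without WT 1 to 0.01 after rescaling by the upper quartile. The lowest adjusted p of a member was 0.122, for Mvk without the library labelled WT 3. Of the values of members under the alternatives, 445 kept their sign and 35 changed it, and the cause was not tested. Without WT 1, Nsdhl (log2 fold change -0.48) and Dhcr7 (-0.57) had unadjusted limma p of 0.0348 and 0.0393, neither past the threshold. With no filter Nsdhl had an unadjusted limma p of 0.0483. The share of all genes under 0.05 in those fits was not computed. Over all genes, those lower in TSP2KO numbered 9 as reported, 0 with a pseudocount of 0.1, 14 with a pseudocount of 10, 0 with no filter, 0 with a mean of at least 100, 0 after upper quartile rescaling, 15 without a trend and 0 with voom. Leaving out 1 library gave 0 to 404 lower and 0 to 357 higher, both highest without the library labelled WT 3.

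Upper quartile rescaling turned the log2 fold change of Idi1 to 0.0099, Msmo1 to 0.043, Ebp to 0.016 and Fasn to 0.011, and trimmed-mean rescaling turned Msmo1 to 0.019. With 1 library left out, the log2 fold change crossed 0 for Hmgcs1 (-0.20 to 0.21), Pmvk (-0.13 to 0.27), Idi1 (-0.34 to 0.26), Fdps (-0.17 to 0.34), Sqle (-0.058 to 0.11), Cyp51 (-0.056 to 0.26), Msmo1 (-0.25 to 0.17), Hsd17b7 (-0.14 to 0.13), Ebp (-0.18 to 0.11), Srebf2 (-0.046 to 0.21), Scap (-0.15 to 0.42), Stard4 (-0.049 to 0.35), Fasn (-0.14 to 0.053), Scd1 (-0.27 to 0.54), Acaca (-0.080 to 0.095), Elovl6 (-0.17 to 0.40) and Fads1 (-0.26 to 0.082).

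The labels do not say whether replicate numbers pair the samples. Same-numbered libraries had deviations correlated at -0.42, -0.25 and -0.39, and no library correlated best with its own number. With so few libraries per group, and a WT library that goes against its label, these correlations cannot exclude pairing. With the number as a replicate block, 0 members passed in either direction, and over all genes 0 were lower and 0 higher.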
